A study of Mus musculus with 6 samples.

Results

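The genes described here build, cap, cross-link and move the actin cytoskeleton. They were 46 genes chosen by name, and each was taken from the row of the deposited table with that gene symbol, so that all 46 were found among the 19225 genes listed. *Tagln2*, which encodes the actin-binding protein transgelin 2, was already known from these data to be lower in the libraries labelled *Cnr1*-/-, and it is set here among its functional relatives. The study compared brain CD11b+ cells, mostly microglia, from stress-naive male mice with and without the cannabinoid receptor CB1, which *Cnr1* encodes. Per the labels the mice were 3 months old, and there were 3 libraries per genotype: strain Cnr1 tm1Zim with genotype d/d, a constitutive knockout made by placing a neomycin cassette in the coding region, and strain C57BL6/J with genotype wt/wt. Brains without cerebellum were dissociated mechanically, freed of myelin, and enriched with magnetic beads against CD11b, with no stress or drug in either group, and the methods describe the genotypes as littermates.

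Actin exists as monomers and as filaments. Thymosins, cofilin, profilin, cyclase-associated protein and twinfilin control the monomer pool and filament turnover, capping proteins close filament ends, and the Arp2/3 complex starts new branches on existing filaments when WASP or WAVE proteins activate it. Small GTPases switch these machines on, RhoGDI proteins hold the GTPases inactive in the cytosol, and non-muscle myosin II pulls on the filaments. Microglia use this system to extend and retract their processes, to migrate and to engulf particles, and the protein IBA1, encoded by the member *Aif1*, is an actin-bundling protein widely used as a microglial marker.

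RNA was sequenced from the 3′ end of transcripts, so a transcript gives about the same number of reads whatever its length. The values are reads per 1000000 reads of a library (cpm), as normalised by the authors, and were not divided by length. The step between low values corresponded to 7708812 to 10723825 reads per library, and 3 reads, taken as the detection floor, to 0.280 to 0.389 cpm. Microglial markers were high in all libraries, with 12 of 12 listed and a summed level of 15651 to 17995 cpm in those labelled *Cnr1*+/+ and 16660.3 to 17786 cpm in those labelled *Cnr1*-/-. The values of *Cnr1* itself ran opposite to the labels. All 3 libraries labelled *Cnr1*+/+ had it at 0, and those labelled *Cnr1*-/- had it at 1.41, 1.21 and 1.79 cpm, about 13, 13 and 15 reads. The paper says that microglia express hardly any CB1. Reads from the transcript end do not show whether the coding region, where the cassette was placed, is intact. Whether either bears on these values was not tested, so every direction below is a direction between labels. The library labelled *Cnr1*-/- replicate 2 stood apart, with a summed level of 4107 cpm for neutrophil markers (11 of 12 listed, *Elane* at 0) against 269.5 to 531 cpm in the other 5 libraries, 2342 cpm for erythrocyte markers (7 of 7 listed) against 136 to 237 cpm, and 112 cpm for monocyte markers (6 of 6 listed) against 28.2 to 34.6 cpm. In bulk RNA, fewer cells of a type and less RNA per cell cannot be told apart.

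The levels of the 46 genes spanned 837-fold. By mean over the 6 libraries, 3 genes exceeded 1000 cpm, 16 lay between 100 and 1000 cpm, 23 between 10 and 100 cpm and 4 below 10 cpm. At the top stood *Actb* (beta-actin, 2905 cpm), *Tmsb4x* (thymosin beta-4, the main buffer of actin monomers, 1969.9 cpm) and *Marcks* (a membrane-bound substrate of protein kinase C that binds actin, 1441 cpm). These 3 genes together held 59.1 to 62.0% of the summed cpm of the 46. The next 5 were *Arpc1b* (334 cpm) and *Arpc2* (322 cpm), subunits of the Arp2/3 complex, *Aif1* (268 cpm), the small GTPase *Cdc42* (219 cpm) and *Actg1*, gamma-actin (218 cpm). Within this order, 3 of the 45 neighbouring pairs had ranges over the 6 libraries that did not overlap, namely *Actb* above *Tmsb4x*, *Marcks* above *Arpc1b* and *Aif1* above *Cdc42*. The ranges of the other neighbours overlapped. The sum of all 46 genes was 9615, 9629 and 11429 cpm in the libraries labelled *Cnr1*+/+ and 10289, 11426 and 10213 cpm in those labelled *Cnr1*-/-, so the groups overlapped.

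**Figure D1:**
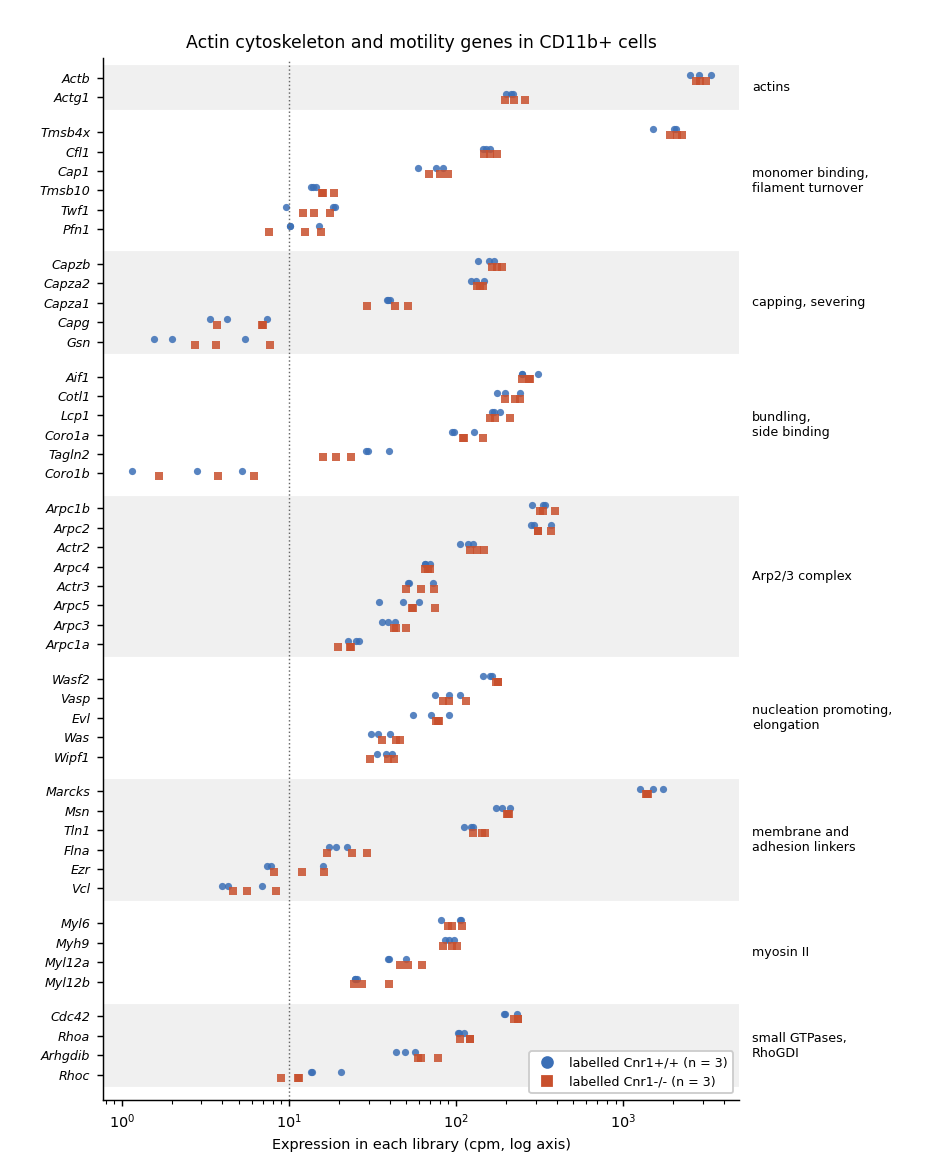
Level of each of the 46 actin cytoskeleton genes in each of the 6 libraries (cpm, log axis), ordered by role and then by mean level. Circles are the 3 libraries labelled Cnr1+/+, squares the 3 labelled Cnr1-/-, and the dotted line marks the 10 cpm minimum mean for testing. The circles and squares lie on top of each other for most genes, while the 3 squares of Tagln2 sit between 16.1 and 23.6 cpm, left of its circles at 29.0 to 39.8 cpm.

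A mean of at least 10 cpm was reached by 42 of the 46 genes and by 6659 genes in all, and only these were tested. The 4 genes below it were *Capg* and *Gsn*, which cap or sever filaments, *Coro1b*, a coronin, and *Vcl*, the adhesion protein vinculin. *Capg* was at 4.28, 3.39 and 7.36 cpm in the libraries labelled *Cnr1*+/+ and at 6.93, 6.99 and 3.70 cpm in those labelled *Cnr1*-/-. *Gsn* (gelsolin) ranged from 1.56 to 7.74 cpm, *Coro1b* from 1.15 to 6.17 cpm and *Vcl* from 3.99 to 8.39 cpm over the 6 libraries. In all 4 of these genes the groups overlapped.

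Of the 42 genes tested, 4 differed between the labels at an unadjusted p under 0.05, or 9.52%, where 6.02% of all genes tested did (limma on log2(cpm + 0.1), two-sided). *Tagln2* and *Rhoc* were lower in the libraries labelled *Cnr1*-/-, and *Arhgdib* and *Arpc5* were higher. *Tagln2* was on the list with its difference already known, so its call was fixed in advance and raises the members' share. Among all genes 5.09% were called higher and 0.931% lower. None of the 42 passed the stricter threshold of a fold change over 1.5 together with an adjusted p under 0.1 (limma with Benjamini-Hochberg adjustment over all 6659 genes), which 6 genes, or 0.0901%, did. Each library came from a different mouse, so these p-values measure the spread between mice. With 3 libraries against 3, the two-sided exact permutation test used for single genes cannot give a p below 0.1.

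*Tagln2* (chr1:172500047-172507380 on the plus strand, mm10) had the largest difference among the 42 genes. Transgelin 2 binds along actin filaments and is a relative of transgelin, the smooth muscle protein, found in many other cells. Its level was 29.7, 29.0 and 39.8 cpm in the libraries labelled *Cnr1*+/+ and 16.1, 23.6 and 19.1 cpm in those labelled *Cnr1*-/-, about 229, 291 and 378 reads against 149, 253 and 160. All 3 libraries labelled *Cnr1*-/- lay below all 3 labelled *Cnr1*+/+. The means were 32.8 ± 6.01 and 19.6 ± 3.76 cpm (SD, n = 3 each), 1.67-fold higher under the *Cnr1*+/+ label. On the log2 scale the difference was -0.74 (SE 0.20, 95% interval -1.15 to -0.34), with an unadjusted p of 0.000884 and an adjusted p of 0.381 in limma with Benjamini-Hochberg adjustment. Among all genes tested, 11 (0.165%) had a log2 fold change as low or lower. The gene was chosen with this difference known, so it is given as a description.

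*Tagln2* reads were not shared with other genes: no 50-base stretch of its last 300 transcript bases occurred in another annotated transcript, and no other gene overlapped it. Markers of smooth muscle and pericytes, cells rich in the related protein transgelin, summed to 3.05 to 5.84 cpm under the *Cnr1*+/+ label and to 3.82 to 4.94 cpm under the *Cnr1*-/- label, with 5 of 8 listed and *Tagln*, *Cnn1* and *Des* not among them. Markers of border-associated macrophages (8 of 8 listed) were lower in 2 of the 3 libraries labelled *Cnr1*-/-, with sums of 115, 125 and 148 cpm against 100.1, 97.6 and 127 cpm, and their part in the *Tagln2* difference was not tested. Endothelial markers (8 of 8 listed) summed to 29.9, 31.1 and 37.2 cpm against 26.7, 35.4 and 25.1 cpm, and the groups overlapped. Without the library that stood apart, *Tagln2* remained at an unadjusted p under 0.05 in limma, and so it did in all 16 alternative settings, with log2 fold changes between -0.89 and -0.60.

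*Rhoc* (chr3:104788375-104794459, plus strand) encodes RhoC, a GTPase related to RhoA that acts on formins and ROCK kinases. Its level was 20.4, 13.5 and 13.8 cpm in the libraries labelled *Cnr1*+/+ and 8.99, 11.5 and 11.4 cpm in those labelled *Cnr1*-/-. The groups did not overlap, but replicate 1 of each group was the extreme value. The means were 15.9 ± 3.90 and 10.6 ± 1.43 cpm (SD, n = 3), a log2 difference of -0.56 (SE 0.26, 95% interval -1.08 to -0.03, limma unadjusted p of 0.0391, adjusted p 0.809). The call was lost without *Cnr1*+/+ replicate 1 (-0.36, p of 0.210 in limma) and without *Cnr1*-/- replicate 1 (-0.44, p of 0.136).

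*Arhgdib* (chr6:136923655-136941899, minus strand) encodes RhoGDI2, the haematopoietic inhibitor that keeps small GTPases in the cytosol. It was at 43.7, 49.5 and 56.5 cpm in the libraries labelled *Cnr1*+/+ and at 58.9, 77.8 and 61.7 cpm in those labelled *Cnr1*-/-. Every library labelled *Cnr1*-/- was above every library labelled *Cnr1*+/+, and replicate 2, which stood apart, was the highest. The means were 49.9 ± 6.39 and 66.1 ± 10.2 cpm (SD, n = 3), 1.32-fold higher, with a log2 difference of 0.40 (SE 0.16, 95% interval 0.08 to 0.72, limma unadjusted p of 0.0152, adjusted p 0.792). Without that library the difference was 0.28 with a limma p of 0.121, and without *Cnr1*+/+ replicate 1 it was 0.31 with a p of 0.0613.

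*Arpc5* (chr1:152766542-152775597, plus strand) encodes the smallest subunit of the Arp2/3 complex. Its level was 48.4, 34.4 and 59.7 cpm under the *Cnr1*+/+ label and 54.6, 74.4 and 55.5 cpm under the *Cnr1*-/- label. Here the groups overlapped, and the lowest and highest values were the replicates 2 of the groups. The means were 47.5 ± 12.7 and 61.5 ± 11.2 cpm (SD, n = 3), with a log2 difference of 0.39 (SE 0.18, 95% interval 0.03 to 0.76, limma unadjusted p of 0.0371, adjusted p 0.809) and an exact permutation p of 0.3. This was the least stable of the 4 calls, held in 10 of 16 alternative settings, and was lost without *Cnr1*-/- replicate 2 (0.25, limma p of 0.202), without *Cnr1*+/+ replicate 2 (0.18, p of 0.329) and when libraries were centred on their medians (0.32, p of 0.0735).

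**Figure D2:**
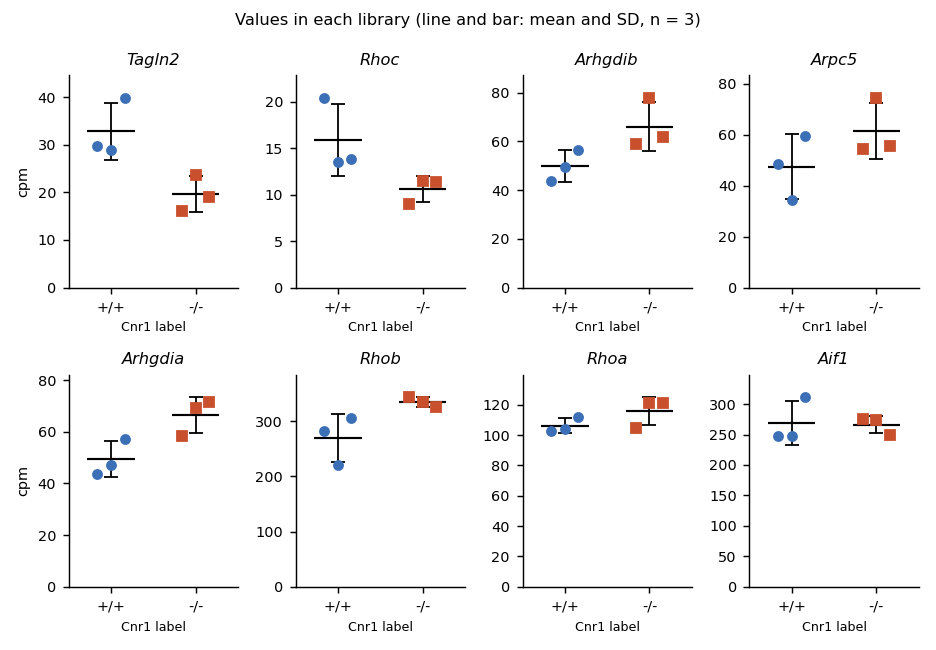
Level in each library (cpm, axes from 0) of the 4 members with an unadjusted p under 0.05 (Tagln2, Rhoc, Arhgdib, Arpc5), of Arhgdia and Rhob from the wider pathway, and of Rhoa and Aif1 for comparison, with lines and bars for mean and SD (n = 3 libraries per label). Tagln2 and Rhoc are lower in all 3 libraries labelled Cnr1-/-, Arhgdib, Arhgdia and Rhob are higher in all 3, and Arpc5, Rhoa and Aif1 overlap.

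Many actin genes are known targets of the serum response factor SRF, which binds the CArG box and is switched on when actin monomers are used up. The promoters of the tested and untested members were therefore read from RefSeq (GRCm38.p6), from 250 bases before to 50 after each start, which gave 55 promoters of 42 of the 46 members, tested or not, all but *Actb*, *Coro1b*, *Cotl1* and *Marcks*. A CArG box, the same on both strands, was found in 4 of these 42 members (9.52%), where 1.81% of 27025 genes with a promoter had one. They are shown, with the box in capitals, because SRF is the best known shared regulator of such genes, on the gene's own strand with the position in GRCm38.p6. The *Myl6* stretch precedes a RefSeq start inside the listed span of the gene, and the other stretches lie upstream of theirs.
Arpc4 (chr6:113377863-113377887, plus): CCTAATTTGGtgcccaacctgaggt
Myl6 (chr10:128493035-128493074, minus): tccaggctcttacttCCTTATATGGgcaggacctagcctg
Actg1 (chr11:120348561-120348600, minus): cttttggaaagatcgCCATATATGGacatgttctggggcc
Vcl (chr14:20929156-20929195, plus): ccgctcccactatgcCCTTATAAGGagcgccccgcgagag
None of these 4 genes was among the 4 that differed. Their log2 fold changes were 0.02 for *Arpc4*, 0.01 for *Myl6* and 0.10 for *Actg1*, and *Vcl* was too low to test. *Srf* itself had a mean of 1.27 cpm and its cofactor *Mrtfb* 5.74 cpm, both too low to test. The cofactor *Mrtfa* (15.6 cpm) had a log2 fold change of 0.21 (95% interval -0.32 to 0.73).

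The promoters of the lower pair, *Tagln2* and *Rhoc*, held no CArG box but several GC boxes (GGGCGG, or CCGCCC on the other strand). The 120 bases before the RefSeq start are shown with the GC boxes in capitals, as these genes carry the downward difference. For both genes this start lies inside the gene span given above, so the bases shown are not upstream of the whole gene.
Tagln2 (chr1:172500126-172500245, plus): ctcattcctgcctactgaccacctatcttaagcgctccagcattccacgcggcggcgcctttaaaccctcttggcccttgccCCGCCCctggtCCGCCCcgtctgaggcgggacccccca
Rhoc (chr3:104788914-104789033, plus): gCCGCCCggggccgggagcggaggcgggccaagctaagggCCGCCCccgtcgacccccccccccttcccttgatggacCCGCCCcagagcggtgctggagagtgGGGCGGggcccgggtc
*Tagln2* had 2 GC boxes with a GC content of 65.8%, and *Rhoc* had 4 with 80%. *Arpc5*, which was higher, had 3 in the same window with 84.2%, and the 3 annotated promoters of *Arhgdib* had 0, 1 and 0. GC boxes were present in 26.5% of all 32851 promoters and in 50.9% of the members' 55. The median GC content of these windows was 54.2% for all promoters and 63.3% for the members, and its part in the GC box counts was not tested. These matches describe the sequence and are not measured binding sites.

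Separation of the groups, read without a test, picked out 3 of the 4 called genes and 3 others. In 6 of the 42 genes the groups did not overlap. *Tmsb10*, *Wasf2*, *Tln1* and *Arhgdib* were higher in all 3 libraries labelled *Cnr1*-/-, as were 8.85% of all genes tested, and *Tagln2* and *Rhoc* were lower in all 3, as were 2.13%. Most genes tested were shifted upwards under the *Cnr1*-/- label, with a median log2 fold change of 0.08 and 68.4% above 0. After each library was centred on its median, 5 of the 42 separated: *Arpc3* and *Arhgdib* were higher, as were 5.24% of all genes, and *Tagln2*, *Rhoc* and *Arpc1a* were lower, as were 5.27%. *Tagln2*, chosen with its difference known, is in the count before and after centring.

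The 42 genes as a whole moved little. Their median log2 fold change was 0.11, beside 0.08 for all genes tested, with 34 above and 8 below 0 (81.0% above, beside 68.4% of all genes). Once libraries were centred on their medians the split was 25 above and 17 below (59.5% above, beside 52.0% of all genes), with a median of 0.04 (0.01 for all genes). After quantile normalisation it was 22 and 20 (52.4% above, beside 49.7%), with a median of 0.01. An absolute log2 fold change under 0.3 was found for 37 of the 42 (88.1%), where 83.4% of all genes tested had one. The median ratio of the highest to the lowest of the 6 libraries was 1.40 for these genes and 1.51 for all genes tested, and single genes ranged from 1.08 to 2.46.

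Library *Cnr1*-/- replicate 2 held the highest value for 28 of the 42 genes and the lowest for none, where it held the highest value for 31.7% of all genes tested. After centring it was highest for 13. Without it, 2 of the 42 genes had an unadjusted p under 0.05 in limma (4.76%, beside 3.81% of all genes tested). They were *Tagln2*, chosen with its difference known, and *Rhoc*. The median log2 fold change of the 42 was then 0.03, beside 0.04 for all genes. Of the 42, 24 lay above and 18 below 0 (57.1% above, beside 57.9% of all genes). The markers of neutrophils, erythrocytes and monocytes were raised in this same library, and their part in these counts was not tested.

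**Figure D3:**
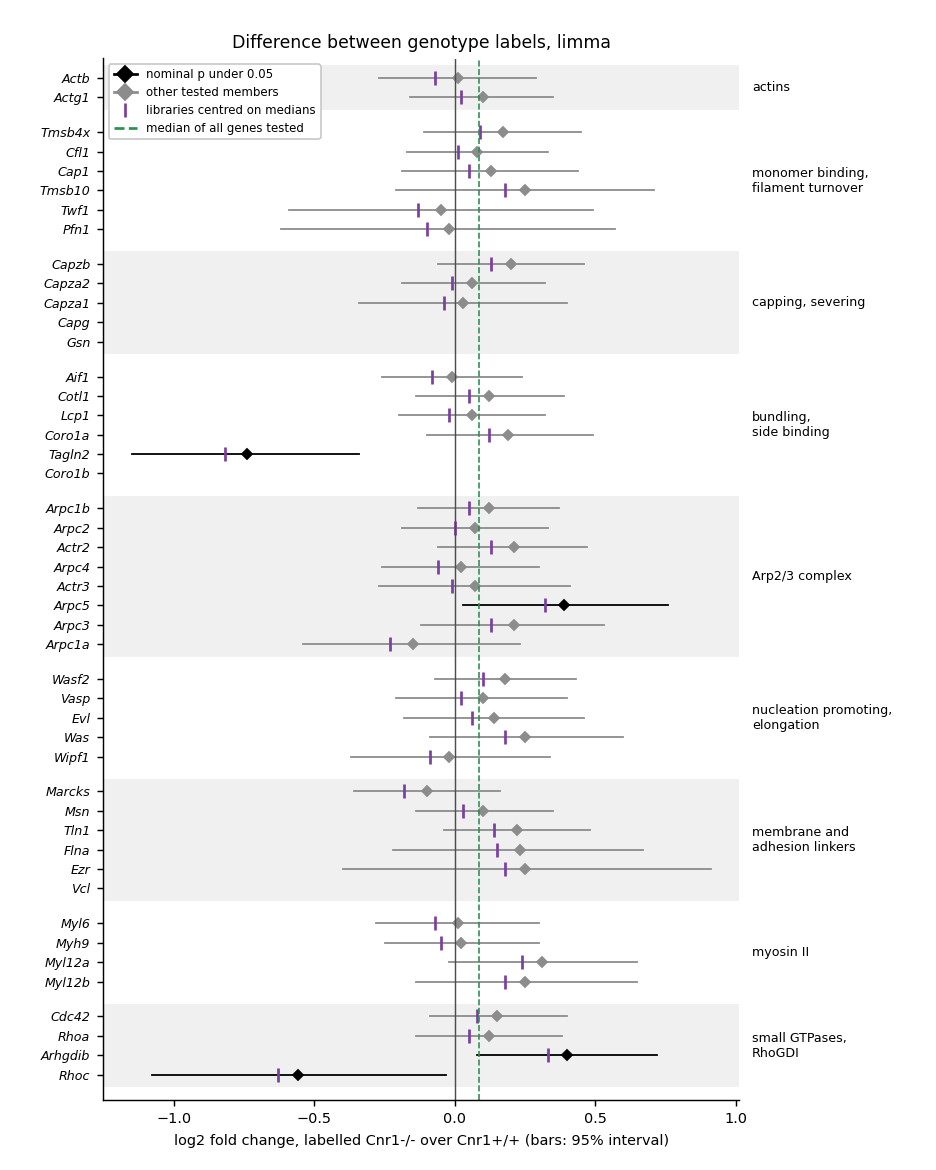
Difference between the labels for the 42 genes tested, as log2 fold change of Cnr1-/- over Cnr1+/+ (limma, diamonds) with its 95% interval (bars), by role. Black marks the 4 genes with an unadjusted p under 0.05, purple ticks give the value after libraries were centred on their medians, and the dashed line is the median of all 6659 genes (0.08). The intervals of the other 38 genes include 0, and Tagln2 at -0.74 and Rhoc at -0.56 lie far to the left of the rest.

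Among the actins, *Actb* (chr5:142903115-142906754, minus strand) was at 2522, 2858 and 3330.2 cpm under the *Cnr1*+/+ label and at 2726, 3122 and 2870.1 cpm under the *Cnr1*-/- label. The groups overlapped, with both the lowest and the highest value under the *Cnr1*+/+ label, and the log2 fold change was 0.01 with a 95% interval of -0.27 to 0.29, which turned to -0.07 after centring. *Actg1*, whose promoter holds a CArG box, had a log2 fold change of 0.10 (-0.16 to 0.35). For *Actg1*, 44.5% of the 50-base stretches at the transcript end also occurred in other transcripts, *Actb* and *Actg-ps1* among them, so its value depends on how shared reads were divided.

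None of the 6 genes for monomer binding and filament turnover passed the test. *Tmsb4x* was at 2057, 1507 and 2024 cpm in the libraries labelled *Cnr1*+/+ and at 2090.0, 2236 and 1906 cpm in those labelled *Cnr1*-/-, with a log2 fold change of 0.17 (95% interval -0.11 to 0.45, and -0.12 after quantile normalisation). Its relative *Tmsb10*, thymosin beta-10, was far lower, and its groups separated before but not after centring, at 14.6, 14 and 13.5 cpm against 15.7, 16.1 and 18.5 cpm. The log2 fold change of *Tmsb10* was 0.25 (-0.21 to 0.71, limma unadjusted p of 0.267), and 39.3% of its transcript-end stretches were shared with *Gm9844*. *Cfl1* (cofilin, which severs filaments), *Cap1*, *Twf1* and *Pfn1* (profilin) lay between -0.05 and 0.13. Profilin had a mean of 11.9 cpm and varied from 7.63 to 15.6 cpm within the *Cnr1*-/- label alone.

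Both subunits of the capping protein, which closes the fast-growing filament end, were well expressed. *Capzb*, the beta subunit, was at 157, 135 and 169 cpm under the *Cnr1*+/+ label and at 176, 189 and 163 cpm under the *Cnr1*-/- label. The groups overlapped through 1 library of each, and the log2 fold change was 0.20 (-0.06 to 0.46). The alpha subunits *Capza1* and *Capza2* had log2 fold changes of 0.03 and 0.06.

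*Tagln2* was alone among the tested filament bundling and side-binding proteins in passing the test, the other 4 lying between -0.01 and 0.19 on the log2 scale. *Aif1* was at 248, 248 and 311 cpm in the libraries labelled *Cnr1*+/+ and at 276, 273 and 249.6 cpm in those labelled *Cnr1*-/-. The groups overlapped and the log2 fold change was -0.01, with a 95% interval of -0.26 to 0.24. *Lcp1* (L-plastin, the leukocyte bundling protein), *Coro1a* (coronin 1A) and *Cotl1* (coactosin-like protein) had log2 fold changes of 0.06, 0.19 and 0.12.

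All 8 genes of the Arp2/3 complex were tested, 7 with a log2 fold change above 0 and 4 after centring. *Arpc5* passed the test and the other 7 did not, with a median over the 8 of 0.10. *Arpc1b* was at 333, 286 and 339 cpm under the *Cnr1*+/+ label and at 333, 392 and 319 cpm under the *Cnr1*-/- label, a log2 fold change of 0.12 (-0.13 to 0.37). The groups overlapped. Its paralog *Arpc1a*, which takes the same place in the complex, was at 22.6, 25.2 and 26.2 cpm against 19.8, 23.3 and 23.4 cpm, a log2 fold change of -0.15 (-0.54 to 0.23). The core subunits *Actr2* and *Actr3* had log2 fold changes of 0.21 and 0.07, and 54.9% of the transcript-end stretches of *Actr3* were shared with other genes.

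Of the activators of branching and elongation, *Wasf2* (WAVE2, which activates Arp2/3 downstream of Rac) separated between the labels before but not after centring. It was at 165, 159.8 and 144 cpm in the libraries labelled *Cnr1*+/+ and at 178, 178 and 174 cpm in those labelled *Cnr1*-/-. Its values under the *Cnr1*-/- label were close together, yet the log2 fold change was 0.18 with a 95% interval of -0.07 to 0.43 and a limma p of 0.146. *Was* (WASP), its partner *Wipf1*, and the elongation factors *Vasp* and *Evl* lay between -0.02 and 0.25, and none passed the test.

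Proteins that tie actin to the membrane and to adhesions gave no call among the 5 tested. *Tln1* (talin, which activates integrins) was at 123, 126 and 111 cpm under the *Cnr1*+/+ label and at 149.9, 143 and 127 cpm under the *Cnr1*-/- label. The groups did not overlap, though the nearest values were 126 and 127 cpm and centring made them overlap, and the log2 fold change was 0.22 (-0.04 to 0.48, limma unadjusted p of 0.0935). *Marcks* was at 1262, 1498 and 1733 cpm against 1364, 1389.8 and 1403 cpm. Its libraries labelled *Cnr1*-/- fell inside the range of the others, and the log2 fold change was -0.10 (-0.36 to 0.16), but -0.30 with a limma p of 0.00358 after quantile normalisation. *Msn* (moesin), *Ezr* (ezrin) and *Flna* (filamin A) had log2 fold changes of 0.10, 0.25 and 0.23, the interval of *Ezr* reaching from -0.40 to 0.91.

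The 4 non-muscle myosin II genes, heavy chain *Myh9* and light chains *Myl6*, *Myl12a* and *Myl12b*, did not pass the test either. *Myl6* was at 105, 80.8 and 107 cpm in the libraries labelled *Cnr1*+/+ and at 94.8, 109 and 89.1 cpm in those labelled *Cnr1*-/-, overlapping, with a log2 fold change of 0.01 (-0.28 to 0.30) that turned to -0.07 after centring. *Myl12a* came closest, at 0.31 (-0.02 to 0.65, limma unadjusted p of 0.0649). A second annotated locus named *Myl12b* overlaps it on the same strand, and it shares 38.8% of its transcript-end stretches with other genes, so the values of these neighbours are not fully separate.

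Among the 3 small GTPases, only *Rhoc* passed the test. *Cdc42*, which drives filopodia and cell polarity, was at 197, 193 and 232 cpm under the *Cnr1*+/+ label and at 234, 234 and 223 cpm under the *Cnr1*-/- label. The groups overlapped, and the log2 fold change was 0.15 (-0.09 to 0.40). *Rhoa*, the main activator of ROCK and myosin contraction, had a log2 fold change of 0.12 (-0.14 to 0.38), with 23.5% of its transcript-end stretches shared with other genes, *Gm12844* among them.

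Ratios between related genes within a library do not depend on how libraries were scaled. Over 9 pairs of paralogs or partners, the *Rhoa* to *Rhoc* ratio was the only one whose groups did not overlap, and it holds the *Rhoc* values already given, so it is no separate evidence. It was 5.06, 7.69 and 8.13 in the libraries labelled *Cnr1*+/+ and 11.7, 10.6 and 10.5 in those labelled *Cnr1*-/-, 1.60-fold higher on average. The exact permutation p was 0.1, the smallest 3 against 3 can give, and 0.900 adjusted over the 9 pairs. The *Arpc1b* to *Arpc1a* ratio was 14.8, 11.3 and 13 against 16.8, 16.8 and 13.6, 1.21-fold higher with a single overlap (exact permutation p of 0.2). *Actb* over *Actg1* ran from 11.8 to 15.3 and *Tmsb4x* over *Tmsb10* from 103 to 149.8, both overlapping. Log2 differences of the other 5 pairs lay between -0.19 and 0.10, and all overlapped.

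**Figure D4:**
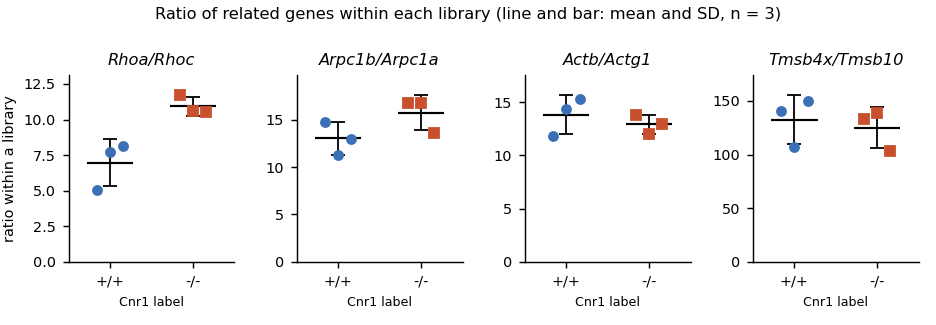
Ratio of 2 related genes within each library (axes from 0), with lines and bars for mean and SD (n = 3 libraries per label). The Rhoa to Rhoc ratio is above 10 in all 3 libraries labelled Cnr1-/- and at 8.13 or below in those labelled Cnr1+/+, while the other 3 ratios overlap between the labels.

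Set against the median of the other tested members in the same library, *Tagln2* was lower under the *Cnr1*-/- label as well. On the log2 scale it stood at -1.60, -1.63 and -1.41 in the libraries labelled *Cnr1*+/+ and at -2.54, -2.20 and -2.22 in those labelled *Cnr1*-/-, a difference of -0.77. *Rhoc* differed by -0.58, *Arhgdib* by 0.38 and *Arpc5* by 0.36 on this scale. These 4 genes had been picked for their difference, so this scale adds no separate evidence.

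The wider pathway was read from 113 further genes, of which 109 were listed and 78 tested. Of the 78, 6 had an unadjusted p under 0.05 (7.69%, beside 6.02% of all genes), all 6 higher under the *Cnr1*-/- label, where 5.09% of all genes were. The median log2 fold change was 0.13, with 70 above and 8 below 0 (89.7% above, beside 68.4% of all genes, whose median was 0.08). After centring it was 0.05, with 53 above and 25 below (67.9% above, beside 52.0% of all genes, whose median was 0.01). *Arhgdia*, which encodes RhoGDI1, the widely expressed relative of *Arhgdib*, was at 43.6, 47.3 and 57.3 cpm against 58.5, 69.0 and 71.6 cpm. The groups did not overlap, and the log2 difference was 0.43 (SE 0.15, 95% interval 0.12 to 0.74, limma unadjusted p of 0.00919, adjusted p 0.690), which fell to 0.37 with a limma p of 0.0507 without *Cnr1*-/- replicate 3.

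The other 5 act around small GTPases or move membranes along actin. *Rhob*, a small GTPase, was at 282, 221 and 306 cpm in the libraries labelled *Cnr1*+/+ and at 343, 334 and 326 cpm in those labelled *Cnr1*-/- (log2 fold change 0.32, limma p of 0.0162). Without *Cnr1*+/+ replicate 2, its lowest library, the value was 0.18 with a limma p of 0.159. *Elmo1*, which with DOCK proteins activates Rac during engulfment, was at 84.8, 101 and 83.7 cpm against 118, 112 and 109 cpm (0.34, limma p of 0.0164). Both separated between the labels. *Arhgef1*, an exchange factor for RhoA, separated as well, at 61.0, 75.2 and 79.3 cpm against 83.7, 101 and 86.8 cpm (0.34, limma p of 0.0254). So did *Dock10*, an exchange factor for Rac and Cdc42, at 86.4, 114 and 103 cpm against 119, 123 and 129 cpm (0.30, limma p of 0.0338). Without *Cnr1*+/+ replicate 1, the lowest library for *Dock10* and *Arhgef1*, these values were 0.19 (limma p of 0.166) for *Dock10* and 0.22 (p of 0.127) for *Arhgef1*. Of all genes tested 8.85% separated upwards, and after centring *Rhob*, *Elmo1* and *Dock10* overlapped while *Arhgef1* did not. *Myo1c*, a membrane-bound class I myosin, had the largest change at 0.67 (limma p of 0.0311), but its groups overlapped, at 7.0, 10.5 and 12 cpm against 9.63, 22.2 and 16.9 cpm. Its value rested on single libraries, at 0.41 (limma p of 0.230) without *Cnr1*-/- replicate 2, 0.45 (p of 0.144) without *Cnr1*+/+ replicate 1 and 1.01 without *Cnr1*-/- replicate 1. Over 16 alternative settings *Rhob* was called in 11, *Elmo1* in 13, *Arhgef1* in 12 and *Dock10* in 8, and *Myo1c* in 10 of 15. None of the 6 passed after adjustment over all genes, and without *Cnr1*-/- replicate 2 the number called was 3 of 77 (*Arhgdia*, *Elmo1* and *Rhob*), or 3.90%, near the 3.81% of all genes.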

How the data were processed

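Polyadenylated RNA of magnetically enriched CD11b+ cells was profiled with a stranded 3′ library kit (QuantSeq FWD) and single reads. According to the methods, the authors aligned reads to mm10 with STAR, assigned them to Ensembl transcripts by expectation maximisation in Partek, which divides reads shared between genes, and normalised by TMM. The strand setting of the counting is not given in the sources used here. The authors deposited CPM values, in which 85.0 to 87.1% of low values were whole multiples of 1 read within 0.02 read. The listed genes held 50.1 to 59.1% of each scaled total, and read numbers in the text are these values divided by the step, so they are estimates. Depth limits precision in counting error only.

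Members, role groups, the wider pathway list and markers were chosen with earlier results of these data known. Tests used every gene whose mean reached 10 cpm, on log2(CPM + 0.1), so that fold changes of low genes are slightly understated, in limma 3.58.1 (R 4.3.3; lmFit, eBayes with trend), over 3 libraries per label and without covariates, with Benjamini-Hochberg adjustment. The study's own thresholds were used: an unadjusted p under 0.05, and an adjusted p under 0.1 with fold over 1.5. Single values were compared by two-sided exact permutation. Genes named with all values were those past the unadjusted threshold, members whose groups did not overlap, and the gene with the highest mean of each role group; other genes with values were chosen after these were seen. Alternatives were 2 other pseudocounts, other minimum means, centring, quantile normalisation, vooma weights, eBayes without trend, rescaling after leaving out mitochondrially encoded genes, the replicate number as a block, and leaving out each library. The limma script was tested on simulated data. Shared reads were judged from 50-base stretches of the last 300 bases of GENCODE vM21 transcripts. Gene ends are given as the deposited stop minus 1, which matched GENCODE for 18722 of 18825 symbols. Figures were drawn with matplotlib 3.10.9.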

Additional observations from a re-analysis of the deposited data

How the results depend on the processing

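*Tagln2* kept its direction and an unadjusted p under 0.05 in limma in all 16 alternatives, with adjusted p from 0.192 to 0.856. The count of members with an unadjusted p under 0.05, 4 as reported with *Tagln2* included, ran from 2 to 7 when 1 library was left out. It was 2 (4.76%) without *Cnr1*+/+ replicate 1 or *Cnr1*-/- replicate 2, beside 5.89% and 3.81% of all genes tested. Without *Cnr1*+/+ replicate 3 it was 7 (16.7%), beside 9.07% of all genes. The count of all genes tested, 401, became 993 with no filter on low values and 263 with a minimum mean of 20 cpm, and ran from 251 (without *Cnr1*-/- replicate 2) to 600 (without *Cnr1*+/+ replicate 3). The count in the wider pathway, 6, became 3 after quantile normalisation (3.85%, beside 5.41% of all genes). It became 1 after rescaling without mitochondrially encoded genes (1.28%, beside 5.32%) and 2 with eBayes without trend (2.56%, beside 5.87%). With 1 library left out it ran from 3 to 12. It was 3 without *Cnr1*-/- replicate 2 or 3 (3.90% and 3.85%, beside 3.81% and 4.74%) and 12 without *Cnr1*+/+ replicate 3 (15.4%, beside 9.07%). The cause of these shifts was not tested beyond the change of sample or gene number. Higher and lower calls among all genes were 339 and 62, but 197 and 178 after centring, 163 and 197 after quantile normalisation and 142 and 212 after rescaling, which moved the median of all genes from 0.08 to 0.01, -0.00 and -0.02.

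Log2 fold changes near 0 changed sign. *Actb* was -0.067 after centring, -0.161 after quantile normalisation and -0.091 after rescaling, and ran from -0.089 to 0.112 with 1 library left out. *Myl6* was -0.068, -0.085 and -0.092 in the same order and ran from -0.122 to 0.081. *Tmsb4x* was -0.12 after quantile normalisation. With 1 library left out, *Aif1* ran from -0.063 to 0.101 and *Marcks* from -0.218 to 0.011. The log2 ratio differences then ran from -0.23 to 0.048 for *Tmsb4x* to *Tmsb10*, from -0.208 to 0.167 for *Capza1* to *Capza2*, from -0.009 to 0.185 for *Myl12a* to *Myl12b*, from -0.813 to 0.301 for *Coro1a* to *Coro1b*, from -0.569 to 0.1 for *Msn* to *Ezr* and from -0.186 to 0.392 for *Cfl1* to *Pfn1*.

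With the replicate number as a block, 4 members (9.52%), 8 wider pathway genes (10.3%) and 421 genes in all (6.32%) were called. Same-numbered libraries did not deviate together (correlations of -0.056, -0.032 and -0.031), which gives no sign that the numbers pair the samples. With 3 libraries per label this check cannot exclude a shared litter or shared handling.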
